A study of Mus musculus with 8 samples.

Results

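10 genes of the actomyosin motor and its switch were followed in cultured cardiac fibroblasts given transforming growth factor beta 1 (TGF-β1). They were chosen by gene symbol in the deposited count table. The set includes the myosin light chains Myl9 and Myl6, the light chain kinase Mylk, the heavy chains Myh9 and Myh10, the phosphatase targeting subunits Ppp1r12a and Ppp1r12b and the GTPase Rhoa, which are the 8 described. All 10 were found among the 56748 genes in the table, and all 10 were among the 13960 that passed the count filter.

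The cells were primary fibroblasts from whole hearts of wild-type C57BL/6J mice at 1 day of age, with 4 untreated libraries and 4 from cells given TGF-β1 at 10 ng/mL for 48 h. All cultures were grown in DMEM with fetal bovine serum. They were obtained by collagenase digestion and a short adhesion step, so they were selected by adhesion and not by a sort. The series design states that replicates came from different litters, and poly(A) RNA was sequenced. No library used here is labelled as having had any other agent.

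Non-muscle myosin II is a hexamer of a pair of heavy chains, a pair of essential light chains and a pair of regulatory light chains, and it pulls on actin filaments. Phosphorylation of the regulatory chain by myosin light chain kinase, under calcium and calmodulin, switches the motor on, and the myosin phosphatase switches it off. Signalling from active RhoA restrains the phosphatase and so favours the phosphorylated light chain. In fibroblasts this machinery drives stress fibre tension, which is a hallmark of the myofibroblast.

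Upstream sequences were matched for the members in the RefSeq promoter table (build GRCm38.p6), with 12 entries for the 9 members that were looked up. The 250 bases before each transcription start were searched on both strands for the CArG box bound by serum response factor, for the SMAD motif CAGACA and for the TEAD motif CATTCC, and no 2 of the matches overlapped. A CArG box was found in 2 of the 12 windows, those of Myl9 and of an internal start of Myl6, against 1.47% of all 32851 windows in the table. CAGACA was found in 2 of 12, those of Myh9 and Mylk, against 17.1% of all windows. CATTCC was found in 3 of 12, those of Myh10, Mylk and an internal start of Ppp1r12b (152100 bases inside the gene), against 12.6%. The window at the gene start of Ppp1r12b held none. The other Myl6 window, with its start 259 bases from the gene start, held no CArG box and neither of the other motifs. Myl9 had the largest rise of the set and Mylk the largest fall, and the Myl6 window was picked for its CArG box. Myh9 rose more than Myl6, but its window is not shown. Whether the motifs bear on the changes was not tested. The windows shown are those of the light chains with a CArG box and that of Mylk. Each was located by exact match in GRCm39, at chr2:156617134-156617383 (plus strand), chr10:128328879-128329128 (minus strand) and chr16:34605070-34605319 (plus strand). Capitals mark the motif matches.
Myl9: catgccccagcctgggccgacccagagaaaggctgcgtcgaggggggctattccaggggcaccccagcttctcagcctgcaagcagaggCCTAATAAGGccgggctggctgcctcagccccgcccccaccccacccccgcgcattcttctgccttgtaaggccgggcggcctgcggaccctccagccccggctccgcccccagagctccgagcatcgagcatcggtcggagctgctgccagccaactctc
Myl6: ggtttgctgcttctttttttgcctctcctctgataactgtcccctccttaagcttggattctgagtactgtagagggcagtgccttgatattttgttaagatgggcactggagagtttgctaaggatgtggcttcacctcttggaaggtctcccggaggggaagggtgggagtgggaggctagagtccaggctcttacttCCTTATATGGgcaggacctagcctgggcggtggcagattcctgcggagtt
Mylk: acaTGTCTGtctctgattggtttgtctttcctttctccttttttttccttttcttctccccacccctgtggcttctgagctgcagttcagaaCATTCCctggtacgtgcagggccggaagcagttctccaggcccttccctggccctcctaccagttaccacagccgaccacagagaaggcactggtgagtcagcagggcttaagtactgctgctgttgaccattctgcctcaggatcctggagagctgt

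The CArG box of Myl9 lay at bases 161 to 152 before the start. That of Myl6 lay at bases 50 to 41 before the internal start, which is 1136 bases from the gene start. In Mylk the SMAD motif lay at bases 247 to 242 on the minus strand and the TEAD motif at bases 158 to 153. The Mylk start in the table lies 39740 bases inside the gene, near an annotated internal start (29 bases away), whereas the counts pool every transcript of the gene. A match is a run of letters and not a measured binding site.

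Per unit of gene length, the light chains and Myh9 were the most abundant of the 8 genes, and Mylk and Ppp1r12b the least. FPKM is the deposited unit, scaled for gene length and by a constant for each library. In untreated cells the mean level was 298.1 FPKM for Myl9, 182.2 for Myl6, 133.4 for Myh9 and 63.9 for Rhoa. It was 48.0 for Myh10, 15.1 for Ppp1r12a, 6.79 for Mylk and 3.89 for Ppp1r12b. With TGF-β1 the first 6 kept their places, and Mylk went from rank 7 to rank 8, at 2.41 FPKM, below Ppp1r12b at 3.83. In both groups the ranges of neighbours in this order did not overlap among the 4 libraries. That covers replicate spread only. The order depends on the gene lengths used, such as 1162 bases for Myl9 and 12928 for Myh9. In normalised counts (CPM), which are not scaled for length, Myh9 was highest in untreated cells, at a mean of 1754 CPM. Myl6 followed at 590.4, Myh10 at 510.2, Rhoa at 486.6 and Myl9 at 352.2 CPM. Mylk and Ppp1r12b were again the lowest, at 77.8 and 59.3 CPM.

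**Figure D1:**
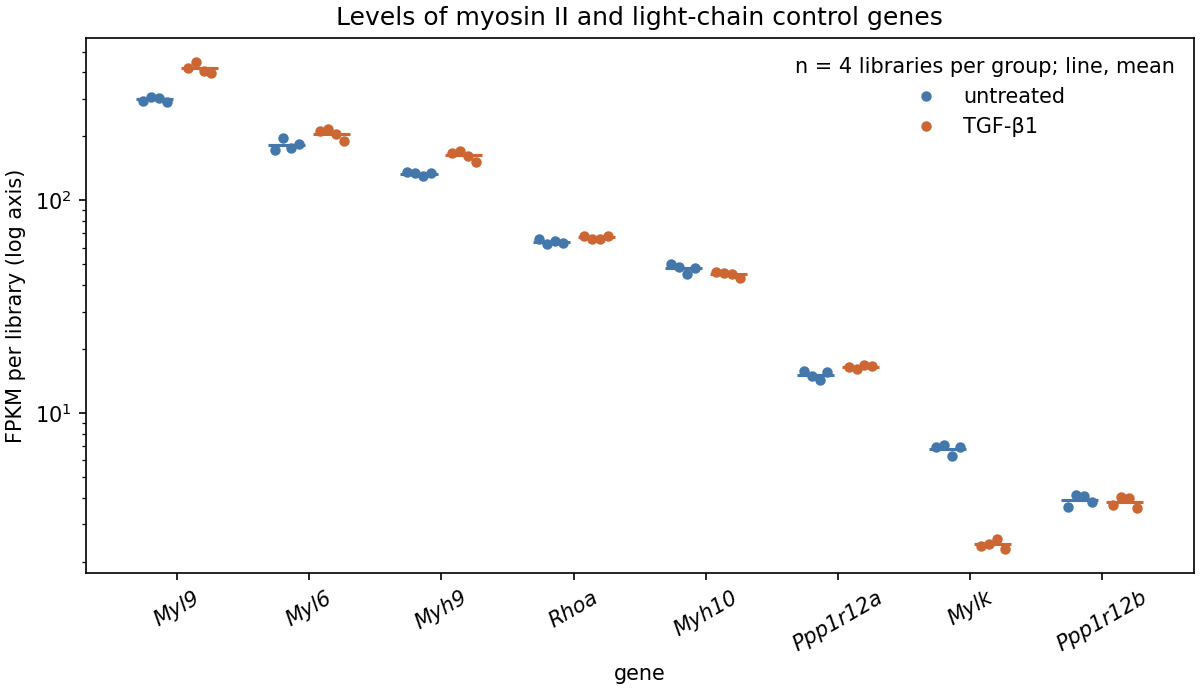
Deposited FPKM (log axis) of each gene in each library, ordered by the untreated mean, with 4 untreated and 4 TGF-β1 libraries and a line at each mean. Myl9 rises from 298.1 to 417.2 and Mylk falls from 6.79 to 2.41 on average, and Myh9 rises from 133.4 to 163.0.

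With TGF-β1, 4 of the 10 genes were higher and 1 was lower, at an edgeR adjusted p under 0.05. Myl9, Myh9, Myl6 and Ppp1r12a rose, and Mylk fell. The remaining 5 did not pass the threshold. Over all genes tested 36.0% were called, 17.6% as higher and 18.5% as lower. In normalised counts the groups did not overlap for 5 of the 10 (Myl9, Myh9, Mylk, Ppp1r12a and Rhoa), against 33.9% of all genes. The median log2 fold change was 0.03 for the set and 0.0068 for all genes tested. With libraries scaled by their totals alone, and not by TMM factors (trimmed mean of M values, the scaling used otherwise), 2 of the 10 were called higher and 3 lower. Over all genes the same change moved the split from 2451 higher and 2579 lower to 1301 higher and 3673 lower.

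**Figure D2:**
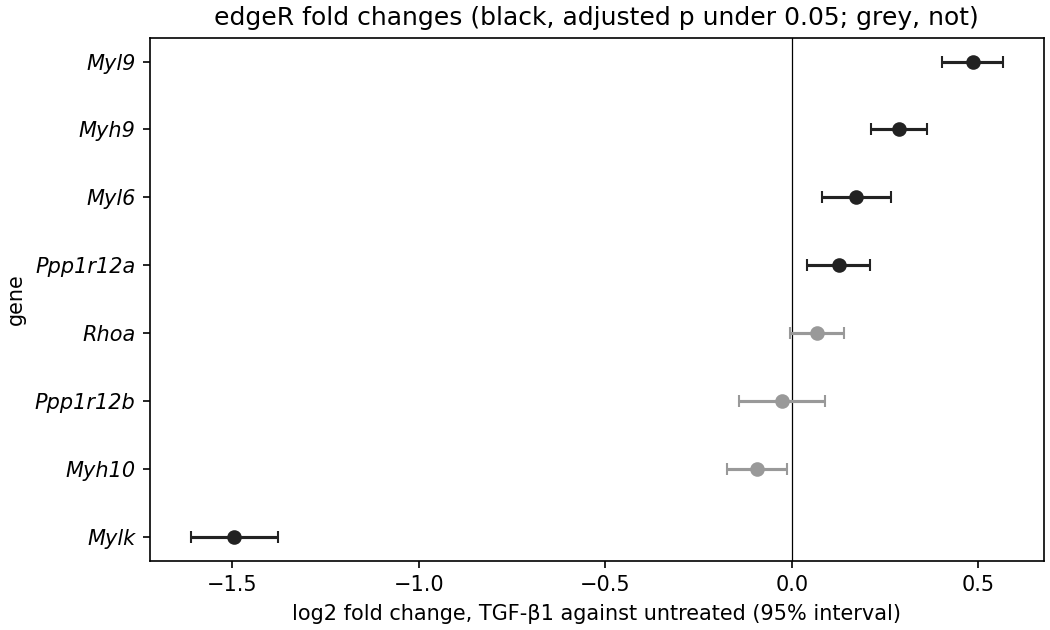
Log2 fold change of each gene, TGF-β1 against untreated, with its 95% interval from the edgeR fit of 4 against 4 libraries. Mylk stands alone at −1.49, Myl9, Myh9, Myl6 and Ppp1r12a lie above 0 in black, and the grey genes did not pass the adjusted threshold.

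Library facts bear on all of these values. Totals ran from 14340740 to 17176898 counts, and untreated replicate 1 stood apart with 0.0332% of its counts on ribosomal RNA against 1.09% to 2.56% in the others. Without it the same number of members were called in each direction, 4 higher and 1 lower. Fibroblast markers were abundant, with all 10 of 10 tested and a summed level of 20633 to 22472 CPM (normalised counts, scaled to library size) untreated and 23550 to 25224 CPM treated; 2 rose and 7 fell. Cardiomyocyte markers summed to 829.2 to 904.5 CPM untreated and 447.3 to 530.9 CPM treated, and 14 of 15 fell. Smooth muscle and mural markers summed to 1401 to 1427 CPM untreated and 1619 to 1769 CPM treated; 5 of 9 tested rose and 3 fell, and the smooth muscle heavy chain Myh11 was at 2.76 ± 0.51 and 2.62 ± 0.46 CPM (SD, n = 4 and 4). Kcnj8, Abcc9 and Higd1b of the mural list did not pass the count filter. Of 8 endothelial markers 2 rose and 2 fell, with sums of 80.5 to 81.3 CPM untreated and 75.3 to 83.1 CPM treated. Of 8 macrophage markers 1 rose and 2 fell, with sums of 192.4 to 230.1 and 170.9 to 205.9 CPM. Of 8 epicardial and mesothelial markers 1 rose and 2 fell, with sums of 1044 to 1091 and 902.6 to 929.7 CPM. Beside these counts, 17.6% of all genes tested were called higher and 18.5% lower. No marker in these lists was at 0 in every library. In bulk RNA, fewer cells of a type and less RNA per cell cannot be told apart, and the part of these marker shifts in the results was not tested.

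The regulatory light chain gene Myl9 had the largest rise of the set. It encodes the chain on which the kinase and phosphatase act, and it lies in GRCm39 on chromosome 2, 156617340 to 156623578, plus strand (ENSMUSG00000067818). Its normalised counts were 345.4, 363.0, 358.9 and 341.5 CPM in untreated replicates 1 to 4 and 492.0, 527.3, 479.7 and 472.0 CPM in TGF-β1 replicates 1 to 4. Every treated library lay above every untreated library. This was a log2 difference of 0.48 ± 0.04 (edgeR adjusted p = 1.19e-09), or 1.40-fold; values after ± are SE for log2 differences and SD for levels. In GENCODE M39, 7.37% of its exonic bases lie under other genes (mainly the antisense gene 5730471H19Rik), whose reads cannot be told apart without strand.

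Myl6 encodes the essential light chain, which stabilises the lever arm of the motor (chromosome 10, 128326729 to 128330014, minus strand, ENSMUSG00000090841). Its level was 556.3, 639.0, 572.1 and 594.2 CPM in the untreated replicates and 682.0, 699.1, 666.6 and 614.6 CPM in the treated ones. TGF-β1 replicate 4 lay below untreated replicate 2, so the groups overlapped. It rose by 0.17 ± 0.04 on the log2 scale (edgeR adjusted p = 0.00413). With library totals the rise was 0.09 (adjusted p = 0.109) and no longer called, in a range of 6.6e-05 to 0.109 over all alternatives.

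The regulatory chains made by related genes moved less than Myl9. Myl12a, the non-muscle regulatory chain gene, rose by 0.17 ± 0.04 on the log2 scale (SE, edgeR adjusted p = 0.00105) from 309.9 ± 9.58 to 349.0 ± 13.5 CPM (SD, n = 4 and 4). Its close relative Myl12b was at 13.0 ± 0.67 and 13.5 ± 0.81 CPM (SD, n = 4 and 4) and was not called. The sequences of these neighbours are so alike that reads may be split between them, so they were summed. Summing would not recover reads counted for neither gene, and whether there were such reads was not tested. In GENCODE M39, 7.49% of the exonic bases of Myl12a and 8.89% of those of Myl12b lie under other genes. The largest overlap of each was with Gm49909 on the same strand. By FPKM, Myl9 made up 75.2% to 76.1% of the 3 regulatory chain genes in untreated libraries and 79.1% to 79.9% in treated ones. These shares depend on the gene lengths used, 1162 bases for Myl9, 3360 for Myl12a and 2770 for Myl12b. Without length scaling, Myl9 was much closer to Myl12a, at 352.2 CPM untreated and 492.7 CPM treated. The ratio of Myl9 to Myl12a and Myl12b rose from 3.13 ± 0.06 to 3.90 ± 0.09 (SD, n = 4 and 4, exact two-sided permutation p = 0.0286, adjusted p = 0.0429 over 6 ratios). The ratio of Myl9 to Myl6 rose from 1.64 ± 0.08 to 2.03 ± 0.07 (SD, n = 4 and 4, exact permutation p = 0.0286, adjusted p = 0.0429). A p of 0.0286 is the smallest that 4 against 4 libraries can give in this test. These ratios do not depend on how libraries are scaled, but their levels depend on the gene lengths used.

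The heavy chain genes parted. Myh9 encodes non-muscle heavy chain IIA, the main motor of stress fibres in fibroblasts (chromosome 15, 77644787 to 77726375, minus strand, ENSMUSG00000022443). It was at 1779, 1761, 1722 and 1753 CPM in untreated replicates 1 to 4 and at 2196, 2250, 2131 and 1988 CPM in the treated ones. All treated libraries were higher, and TGF-β1 replicate 4 was the lowest of them. Myh9 thus rose by 0.29 ± 0.04 on the log2 scale (edgeR adjusted p = 1.16e-06), or 1.22-fold.

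Myh10 encodes heavy chain IIB, a slower motor that holds tension for longer (chromosome 11, 68582385 to 68707458, plus strand, ENSMUSG00000020900). Its values were 535.7, 516.1, 478.3 and 510.5 CPM untreated and 490.7, 482.3, 479.2 and 460.5 CPM treated. Untreated replicate 3 lay inside the treated range. Its log2 difference was −0.09 ± 0.04 (edgeR adjusted p = 0.0622, 95% interval −0.17 to −0.014), which did not pass the threshold. It passed without untreated replicate 3 (−0.13, edgeR adjusted p = 0.0154), and with DESeq2, upper-quartile factors or library totals (adjusted p = 0.0493, 0.0322 and 0.00177), over a range of 0.00177 to 0.161 for all alternatives. Within each library the balance of the heavy chains shifted by more than the replicate spread. The ratio of Myh10 to Myh9 was 0.372, 0.362, 0.343 and 0.360 untreated and 0.276, 0.265, 0.278 and 0.286 treated. The groups did not overlap (exact two-sided permutation p = 0.0286, adjusted p = 0.0429 over 6 ratios), and Myh10 went from 26.4% ± 0.65 to 21.7% ± 0.54 of the summed FPKM of both genes (SD, n = 4 and 4). The smooth muscle chain Myh11 was not called, and Myh14 did not pass the count filter.

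Mylk had the largest change of the set, and it fell. It encodes the calmodulin-dependent kinase that phosphorylates the regulatory light chain, with long, short and kinase-free products from a single gene (chromosome 16, 34565580 to 34822790, plus strand, ENSMUSG00000022836). Its level was 79.4, 81.0, 71.8 and 78.8 CPM in untreated replicates 1 to 4 and 27.2, 27.7, 29.3 and 26.4 CPM in the treated ones. The highest treated library was far below the lowest untreated one. On the log2 scale the difference was −1.49 ± 0.06 (edgeR adjusted p = 3.49e-15), a level 2.82-fold lower. Over all called genes the median size of a change was 0.34 on the log2 scale. The annotation holds 8 transcripts of the gene, 2 of them coding, and gene-level counts do not say which of them fell. Of its exonic bases, 6.85% lie under other genes, mainly the antisense gene E130310I04Rik.

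Other members of the Mylk family were at low levels. Mylk2 and Mylk3, the kinases of skeletal and cardiac muscle (named after their values were seen), were at 3.96 ± 0.37 and 4.31 ± 0.47 CPM untreated (SD, n = 4) and fell by 0.76 ± 0.21 and 0.81 ± 0.19 (SE, edgeR adjusted p = 0.00647 and 0.00178). Mylk3 is also in the cardiomyocyte list, of which 14 of 15 members fell, and the part of that shift in its fall was not tested. Mylk4 did not pass the count filter. In the list of 12 other light chain kinases 2 of 11 tested rose and 4 fell, with a median of −0.20. The shares over all genes tested were 17.6% higher and 18.5% lower. Cdc42bpa, a CDC42-binding kinase of the MRCK family, rose by 0.32 ± 0.04 (SE, edgeR adjusted p = 1.29e-06). Citron kinase, Cit, which works in the cleavage furrow of dividing cells, fell by 2.53 ± 0.22 (edgeR adjusted p = 4.84e-09) from 5.84 ± 0.50 CPM untreated to 1.00 ± 0.38 CPM treated. Cdc42bpb, with the highest mean CPM of the list, was at 178.7 ± 5.61 and 174.5 ± 9.11 CPM (SD, n = 4 and 4) and was not called.

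The phosphatase targeting subunits changed little. Ppp1r12a encodes MYPT1, which brings the catalytic subunit to myosin (chromosome 10, 107998054 to 108120336, plus strand, ENSMUSG00000019907). It was at 128.0, 121.4, 117.1 and 127.2 CPM untreated and 134.1, 131.0, 136.9 and 136.6 CPM treated, with no overlap. Its rise of 0.13 ± 0.04 on the log2 scale (edgeR adjusted p = 0.0191) was called in the full data but not with library totals (0.04, adjusted p = 0.481). The call was also lost without untreated replicate 2, untreated replicate 3 or TGF-β1 replicate 3 (edgeR adjusted p = 0.0561, 0.0832 and 0.0549), in a range of 0.0168 to 0.481 over all alternatives. Ppp1r12b, which encodes the related MYPT2 (chromosome 1, 134682396 to 134883680, minus strand), was at 54.8 to 62.5 CPM untreated and 54.5 to 61.2 CPM treated. Its log2 fold change was −0.03 with a 95% interval of −0.14 to 0.09, and the ratio of Ppp1r12b to Ppp1r12a, 0.258 ± 0.026 and 0.232 ± 0.016 (SD, n = 4 and 4), was not called (exact permutation p = 0.171, adjusted p = 0.206).

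Set against each other within a library, the kinase fell relative to the phosphatase subunit. The ratio of Mylk to Ppp1r12a by FPKM was 0.442, 0.475, 0.436 and 0.441 in untreated replicates 1 to 4 and 0.145, 0.150, 0.152 and 0.137 in the treated ones. Every treated value lay below every untreated value (exact two-sided permutation p = 0.0286, adjusted p = 0.0429 over 6 ratios). On the log2 scale the ratio fell by 1.62 ± 0.04 (SE). Mylk alone fell by 1.49 with no overlap of the groups, so this ratio mostly restates that fall. Its test is not separate evidence. The adjusted p of 0.0429 also rests on 4 of the 6 ratios having the smallest p the test can give. These are transcript levels, and neither enzyme activity nor light chain phosphorylation was measured.

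**Figure D3:**
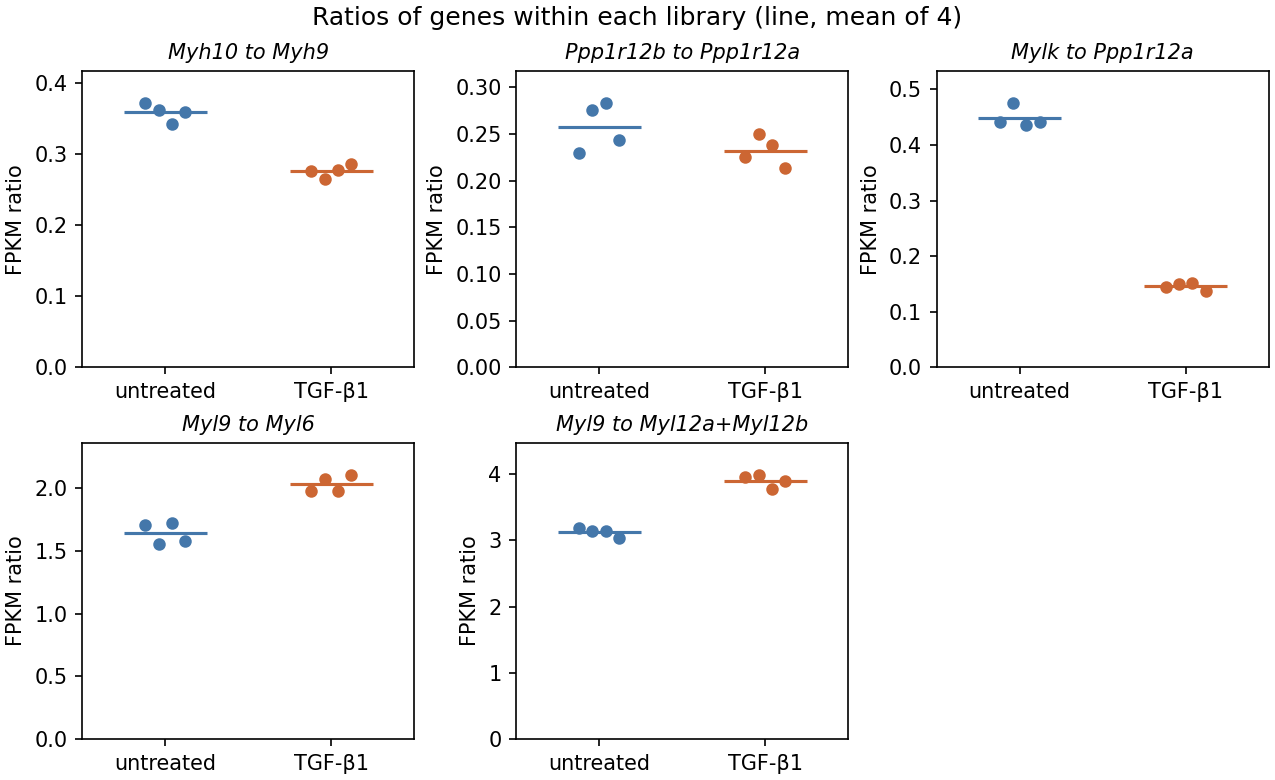
Ratio of FPKM between named genes within each library, for 4 untreated and 4 TGF-β1 libraries with a line at the mean (axes start at 0). The groups separate for Myh10 to Myh9, Mylk to Ppp1r12a, Myl9 to Myl6 and Myl9 to Myl12a plus Myl12b, and overlap for Ppp1r12b to Ppp1r12a.

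Among the other phosphatase genes, 3 of 10 rose and 3 fell, with a median of −0.0053, beside 17.6% and 18.5% of all genes. Ppp1r14a, which encodes the phosphatase inhibitor CPI-17, rose by 0.56 ± 0.06 (SE, edgeR adjusted p = 3.08e-07), from 46.2 ± 2.86 to 68.2 ± 6.84 CPM (SD, n = 4 and 4). Its relative Ppp1r14c fell by 0.69 ± 0.18 (edgeR adjusted p = 0.00382) from a low level of 5.69 ± 1.20 CPM. Mprip, which encodes a scaffold that links the phosphatase to RhoA and actin, had the highest mean CPM of the list and rose by 0.24 ± 0.04 (SE, edgeR adjusted p = 1.53e-05). In the list of calmodulins and caldesmon 1 of 4 rose and 1 fell. Cald1, the actin-binding caldesmon gene, rose by 0.35 ± 0.03 (SE, edgeR adjusted p = 4.35e-09), and Calm3, a calmodulin gene, fell by 0.10 ± 0.04 (SE, edgeR adjusted p = 0.0435).

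Rhoa was not called. It encodes a GTPase that acts on the phosphatase through its effectors (chromosome 9, 108183328 to 108215133, plus strand, ENSMUSG00000007815). It was at 502.3, 474.4, 493.3 and 476.4 CPM untreated and 514.8, 503.3, 503.5 and 517.1 CPM treated, so that the treated libraries lay just above the untreated ones. Its log2 difference of 0.07 ± 0.03 (edgeR adjusted p = 0.139, 95% interval −0.0045 to 0.14) did not pass the threshold, and with library totals it turned to −0.014.

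In the list of 15 exchange factors for RhoA, 3 rose and 8 fell (median −0.18). Over all genes tested 17.6% were called higher and 18.5% lower (median 0.0068), a split that moved towards falls with library totals. Arhgef28 rose by 0.90 ± 0.07 (edgeR adjusted p = 4.18e-10), from 17.9 ± 1.09 to 33.4 ± 0.97 CPM (SD, n = 4 and 4). Ect2, the exchange factor of cytokinesis, fell by 2.16 ± 0.14 (SE, edgeR adjusted p = 4.18e-11), and Arhgef2, which encodes the microtubule-associated factor GEF-H1 and had the highest mean CPM of the list over all 8 libraries, rose by 0.30 ± 0.04 (edgeR adjusted p = 7.82e-07), from 241.6 ± 7.39 to 298.2 ± 8.16 CPM. In untreated cells Arhgef12 was higher, at 262.0 CPM. In the list of 16 GTPase-activating proteins drawn up for RhoA, 2 rose and 7 fell (median −0.19). Which GTPase each of them acts on in these cells was not tested. Arhgap5 rose by 0.19 ± 0.05 (edgeR adjusted p = 0.00301), and Racgap1, the partner of Ect2 in cytokinesis, fell by 2.06 ± 0.08 (SE, edgeR adjusted p = 2.53e-15). Arhgap1, with the highest mean CPM of them over all 8 libraries (in treated cells Arhgap5 was higher, at 265.2 CPM), was at 273.5 ± 10.6 and 255.0 ± 9.82 CPM (SD, n = 4 and 4) and was not called, and 36.7% of its exonic bases lie under other genes, mainly antisense Atg13.

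Over all 83 tested pathway genes outside the set, 19 rose and 31 fell, with a median of −0.05, beside 17.6% and 18.5% of all genes. With library totals 13 rose and 40 fell.

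**Figure D4:**
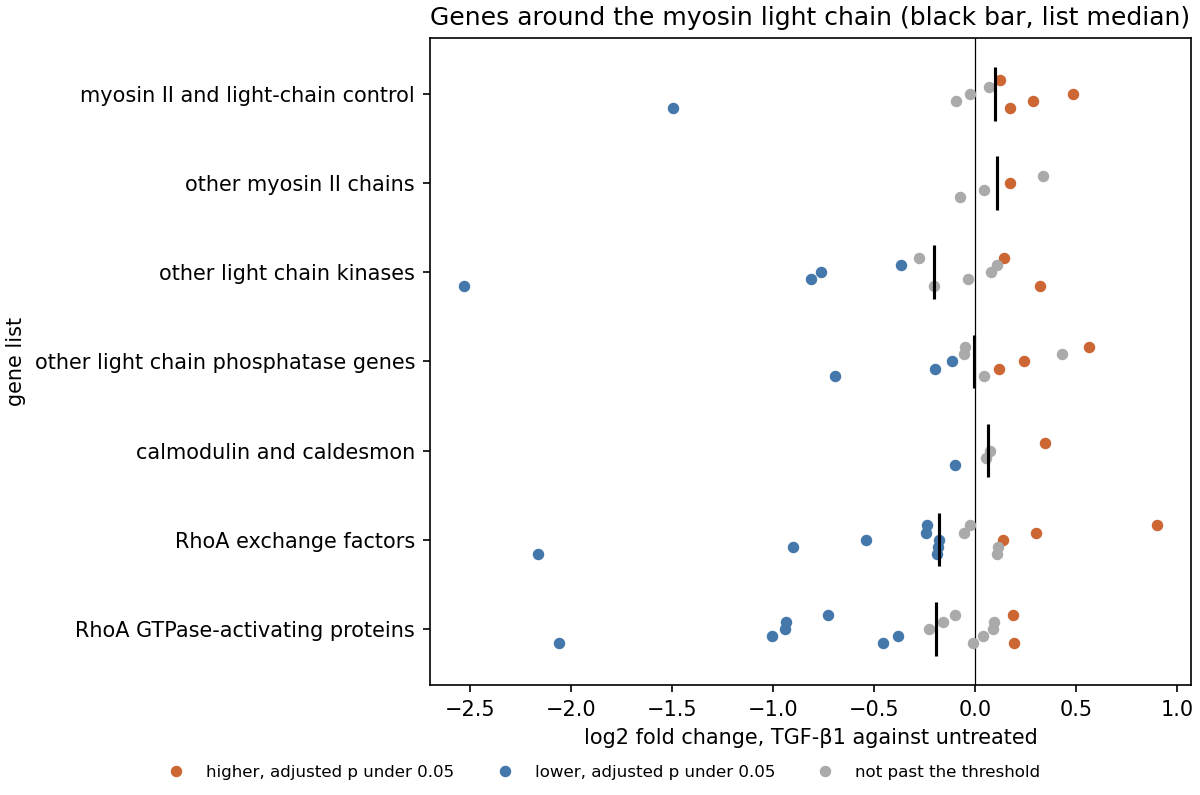
Log2 fold change, TGF-β1 against untreated, of the tested genes in 7 lists, each point a gene, with a black bar at the median of the points shown; the top list shows the 8 genes described. Colour marks genes past the adjusted threshold, and the points farthest to the left, Mylk, Cit, Ect2 and Racgap1, lie at −1.49, −2.53, −2.16 and −2.06.

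The genes most like Myl9 and Mylk in their profile were found by the distance between log2 CPM values centred on the mean over 8 libraries. For Myl9 they were Ext1 (heparan sulfate synthesis), Endod1 and Cdkn1a (a cell cycle inhibitor), at distances of 0.083, 0.112 and 0.124, with log2 fold changes of 0.46, 0.53 and 0.45. For Mylk they were Pkhd1l1, Smc2 (a condensin subunit) and Dlk1, at distances of 0.151, 0.192 and 0.250, with log2 fold changes of −1.46, −1.56 and −1.38. The 8 libraries fall into 2 groups, so the difference between groups is part of this measure.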

How the data were processed

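Primary mouse cardiac fibroblasts were sequenced in 8 libraries. Whole-number counts per gene were deposited for 56748 genes. FPKM values by the authors equal the count per gene length (10458 bases for Myh10, for example) times a constant for each library. The library divisor in FPKM was 1.03 to 1.07 times the count total in untreated libraries and 0.971 to 0.994 times in treated ones. Fits on FPKM keep that scaling, so they do not test scaling by totals. Per the submitters' processing notes, HISAT2, Subread with featureCounts and CASAVA were used, none with a version, and the builds GRCm38 and mm10 are listed, whereas the series design gives mm39. Coordinates in the table fall at the same gene in GENCODE M39 (GRCm39) for 99.9% of coding genes and in RefSeq GRCm38.p6 for 16.1%, so they were read as GRCm39. The strand setting was not given in the sources used here.

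Genes were filtered by filterByExpr (minimum count 10, minimum total 15), scaled with TMM factors and tested with edgeR 4.0.16 (quasi-likelihood, two-sided, group as the only term, Benjamini-Hochberg adjustment over 13960 genes) in R 4.3.3. The procedure was tested on simulated data with few changed genes, balanced between rises and falls, and the same dispersion for all genes. That setting differs from these data and does not test the choice of scaling. Each SE is the log2 difference divided by the root of the F statistic, and intervals are 95%. Ratios were tested by exact permutation over the 70 assignments of libraries, adjusted over 6 ratios. CPM values use TMM-scaled totals. Alternatives were other scalings and filters, DESeq2 1.42.0, limma 3.58.1 on log2 FPKM with pseudocounts of 1 and 0.1, a replicate block and each library left out.

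The genes and lists were chosen with earlier results of these data known. The results of 2 members, 2 lists and 1 ratio are not reported here, though counts over the set, over all pathway genes and the adjustment over 6 ratios include them. From each other list the rule named the called gene of smallest p in each direction and the gene of highest mean CPM over all libraries. It also named the 3 genes of nearest profile to the most significant riser and faller. Replicate pairs within groups differed beyond sampling noise (median chi-square per gene 2.08 to 3.16 times that of chance). That spread is not a measure of library quality. All libraries were kept.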

Additional observations from a re-analysis of the deposited data

Results flagged for a closer look

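Within groups of 4 libraries, the levels of the genes described and the ratios gave 26 groups to look at for a sample far from the others, and 1 stood out. Chance flags about 1 in 20 such groups. The ratio of Mylk to Ppp1r12a in the untreated libraries had replicate 2 at 0.475 against 0.436 to 0.442 in the others, a gap of 0.857 of the range on the log2 scale.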

How the results depend on the processing

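Members called ranged from 4 to 6 over 17 alternatives, other pathway genes from 43 to 53 and all genes from 4470 to 5028. Leaving out each library gave 4 to 5 members, 43 to 50 pathway genes and 4517 to 4750 genes. Of 136 comparisons of a described gene with an alternative, 127 kept their side of the threshold with no called gene changing direction, 5 lost a call (Myl6 once, Ppp1r12a 4 times) and 4 gained one (all for Myh10). Mylk ranged from −1.57 to −1.19, Myl9 from 0.40 to 0.51 and Myh9 from 0.21 to 0.32, all called throughout. Deviations from the group means were almost uncorrelated between samples of equal replicate number (−0.034 to 0.039). Whether equal numbers mark shared litters is not stated, and these correlations cannot tell. The fit with the replicate block called 4 members higher and 1 lower, 4971 genes in all. For the ratios, pairing by replicate number (the replicate block) left the log2 differences at −0.38 for Myh10 to Myh9, −1.62 for Mylk to Ppp1r12a, 0.31 for Myl9 to Myl6 and 0.32 for Myl9 to Myl12a plus Myl12b, with adjusted p = 0.15. That exact sign-flip test over 16 flips cannot give a p below 0.125. The other alternatives kept these 4 ratios past the threshold. With a library left out this was bound to happen. Groups that do not overlap stay apart, so the permutation test again gives its smallest p (adjusted p = 0.0429). Only the sizes are informative there. Without each library the log2 differences ranged from −0.40 to −0.36, −1.64 to −1.59, 0.29 to 0.33 and 0.30 to 0.33. Rhoa and Ppp1r12b changed sign under some alternatives without being called. Library totals moved the median of all genes from 0.0068 to −0.07, and with them Myl6 and Ppp1r12a lost their calls while Myh10 gained one. Gene-level counts limit what can be said of single transcripts.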
